A study of Mus musculus with 9 samples.

Results

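The integrated stress response and the amino acid supply it controls were followed in cultured mouse pancreatic islets through 33 genes named by symbol, none of them chosen by a threshold on these values. These genes and the wider lists below were chosen with earlier results of these data known. The shares called among them are therefore description and not independent support. All 33 symbols were found among the 56748 genes of the deposited table, and each had 1 row that passed the count filter, so the description covers 33 of the 17276 genes tested. A second row named Ddit3, with no count in any library, was left out. The libraries, 3 in each of 3 groups, came from total RNA of whole islets of C57BL/6 wild-type mice. Particle islets were cultured with an inflammatory mixture (interleukin-6, interleukin-1 beta and tumor necrosis factor alpha) plus polydopamine-coated mesoporous silica nanoparticles built to deliver nutrients. Inflamed islets received the mixture alone, given in the design as 48 hours, and control islets received neither. No group with particles but without the mixture was analysed here, so effects of the particles are seen only on top of the cytokines.

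Cells slow protein synthesis under stress by phosphorylating the alpha subunit of the initiation factor eIF2. The kinases that do so sense amino acid shortage (GCN2), misfolded protein in the endoplasmic reticulum (PERK), double-stranded RNA (PKR) or heme shortage (HRI). While most translation falls, the mRNA of the transcription factor ATF4 is translated better, and ATF4 with its partners switches on genes that make amino acids, import them and load them onto tRNA. The same programme induces CHOP and, through GADD34, the phosphatase that ends the response. Beta cells secrete large amounts of protein and depend on these controls. RNA levels do not show whether eIF2 was phosphorylated or how much ATF4 protein was made.

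Library totals ranged from 17832949 to 55865759 counts. The beta cell genes Ins1, Ins2 and Iapp were among the abundant transcripts of every library, which bears out the tissue label. The summed level of 10 beta cell markers was 87560 to 240200 CPM (counts relative to the scaled library total) in particle, 123600 to 229000 CPM in inflamed and 341800 to 360100 CPM in control islets. Of the 10, 9 were called lower in inflamed than in control islets and 3 lower in particle than in control islets. The sum mostly follows Ins2, at 104600 to 192300 CPM in inflamed and 231300 to 243900 CPM in control islets. Mafa fell further, to 41.6 to 70.2 CPM in inflamed islets, against 2521 to 2946 CPM in control islets. The sum of 13 macrophage markers was 365 to 549 CPM in particle, 1083 to 1218 CPM in inflamed and 327 to 410 CPM in control islets, with 11 markers called higher and 1 lower in inflamed against control. In particle against control 3 were called higher and 1 lower, so the sum hides opposite movements. Cd68 was at 69.7 to 162 CPM in particle and 11.9 to 19.4 CPM in control islets. C1qa was at 46.7 to 66.8 CPM in particle and 127.5 to 188.8 CPM in control islets. Of these 13 markers, Cx3cr1 was at 0 in inflamed replicates 1 and 3 and in particle replicate 3. In bulk RNA, fewer cells of a type and less RNA per cell cannot be told apart, and the part of these shifts in the results that follow was not tested. Particle replicate 2 stood apart in its group, with 8068 CPM of 8 alpha cell markers against 172.5 and 532 CPM in the other particle libraries, and with 1236 CPM of 10 acinar markers against 2.07 and 64.3 CPM.

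Cytokine-treated islets differed from controls in 12 of the 33 genes, in both directions. The regulators Atf3, Ddit3, Ppp1r15a, Cebpg and Atf4 rose in inflamed against control islets, together with Eif2s1 and the transporter subunit Slc3a2, while the proline enzymes Pycr1 and Aldh18a1, the serine enzyme Psph, the glutathione-degrading Chac1 and the lipoprotein receptor Vldlr fell. The threshold for a call was an adjusted p of 0.05 (edgeR, quasi-likelihood test, Benjamini-Hochberg over all genes tested). By that rule 7 of 33 were higher (21.2%) and 5 lower (15.2%), a total of 36.4%. Among all genes 20.7% were higher and 19% lower, a total of 39.6%, so the share of the 33 that changed was near the background. With unscaled library totals the split was 10 higher and 4 lower. Their median log2 fold change was 0.25, beside 0.05 for all genes tested. The 3 libraries of one group lay wholly above those of the other for 9 of 33 genes (27.3%) and wholly below for 9 (27.3%), against 28.3% and 28.5% of all genes. At an unadjusted p under 0.05 there were 16 of 33 (48.5%), 9 of them higher, against 49.1% of all genes in either direction and 25.6% higher. The number called lower was 3 without control replicate 3 and 8 without particle replicate 2. Counts over all genes with unscaled totals are given at the end. The number of all genes called lower in these omissions is not given here. These shifts are therefore not read as particular to the 33.

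**Figure D1:**
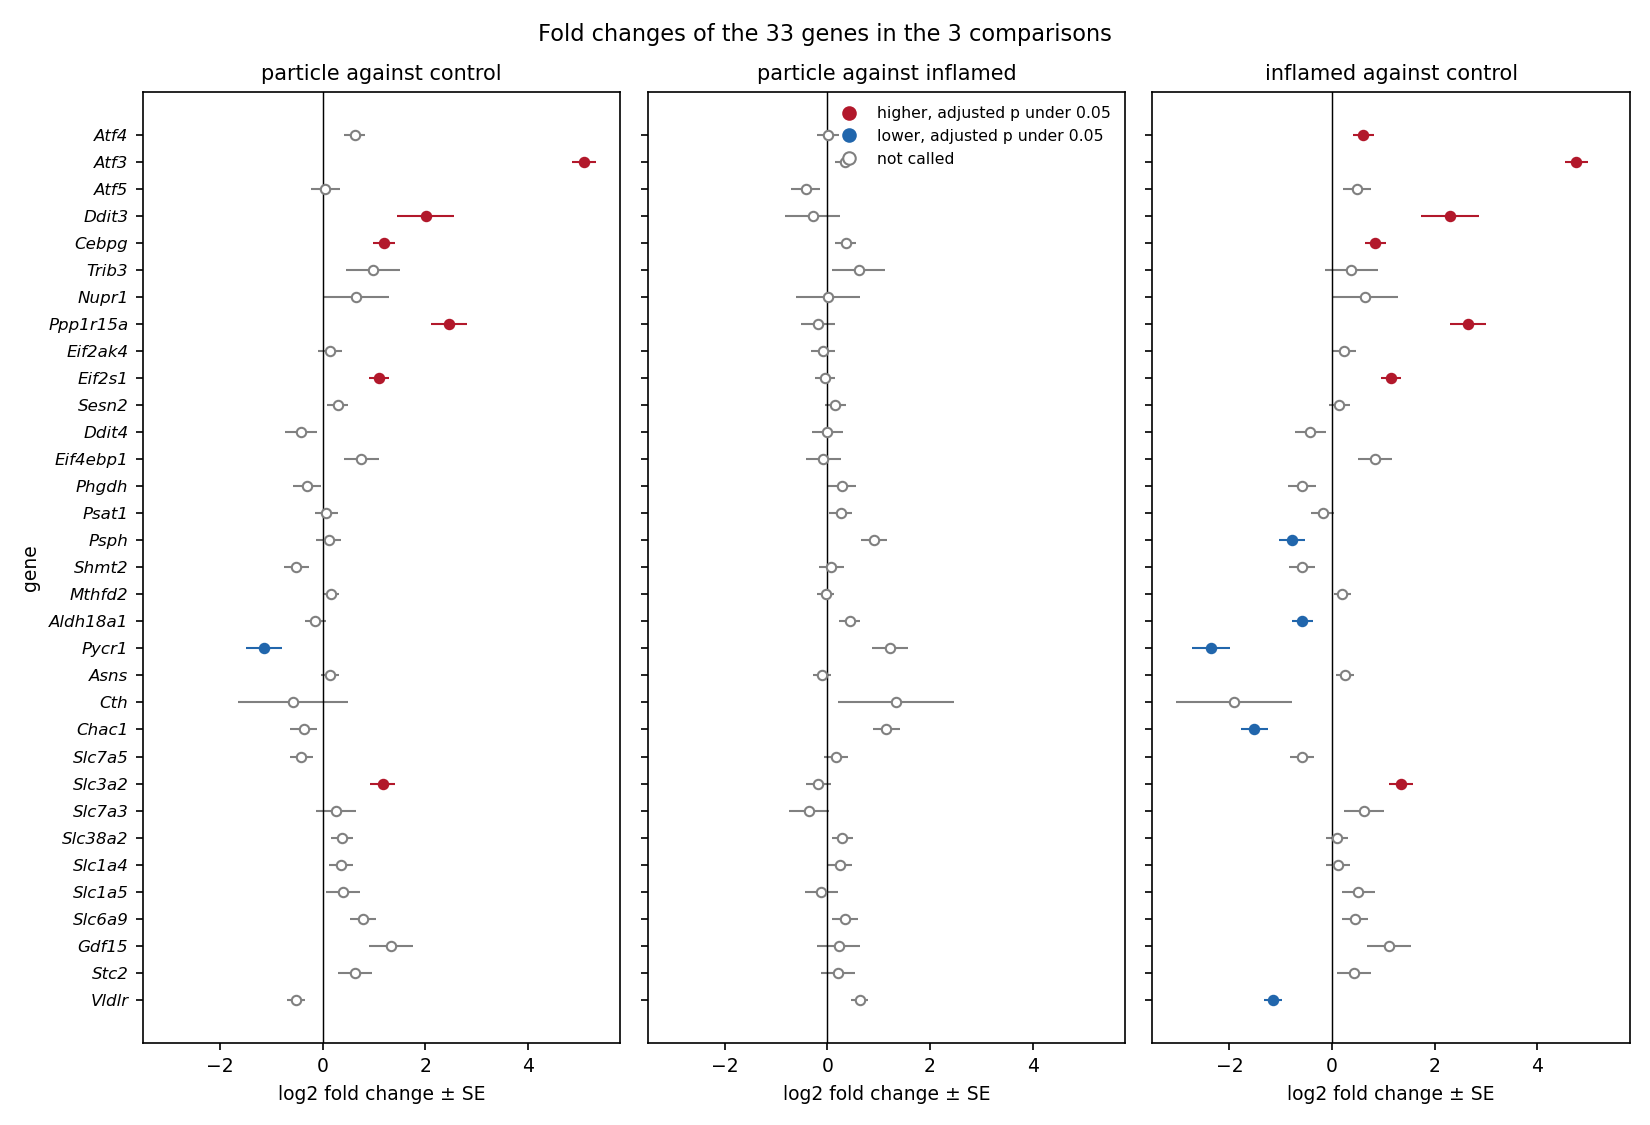
Log2 fold change (x axis, ± SE) of the 33 genes (y axis) in 3 panels, one for each comparison, with the group named first over the group named second and 3 libraries in each group. Filled points passed the adjusted p of 0.05, red for higher and blue for lower; Atf3 lies farthest to the right at 4.76 in inflamed against control and Pycr1 farthest to the left among called genes at -2.36, and no point is filled in the panel of particle against inflamed.

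Among the transcription factors and feedback genes, 5 of 8 rose in inflamed islets (62.5%) and 0 fell, against 20.7% and 19% of all genes. Atf3, a stress-induced repressor and activator of the ATF family (ENSMUSG00000026628, GRCm39 chromosome 1 from 190902493 to 190950236, minus strand), was the most changed. It stood at 229, 156 and 209 CPM in particle islets and 149, 146 and 172.5 CPM in inflamed islets, against 6.03, 5.24 and 6.03 CPM in control islets. All 6 cytokine-treated libraries thus lay far above all controls, and the log2 fold change for inflamed against control was 4.76 with an SE of 0.23 (edgeR adjusted p = 5.83e-07).

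Ddit3, which encodes the pro-apoptotic factor CHOP (ENSMUSG00000025408, chromosome 10 from 127126643 to 127132157, plus strand), was measured at 689, 659 and 897 CPM in particle islets and 960, 754 and 1026 CPM in inflamed islets, against 363, 47.4 and 147 CPM in control islets. The groups did not overlap, but the control libraries differed among themselves by 7.66-fold. The log2 fold change in inflamed islets was 2.30 (SE 0.56, adjusted p = 0.00831), and 3.20 without control replicate 1. The call was lost without a count filter (0.0593). Ddit3 overlaps Mars1 on the other strand, whose mean count was 26.4% of that of Ddit3, and the sources used here do not say whether counting used strand, so its level is uncertain. Mars1 itself was at 184 ± 25.9 CPM in inflamed and 163 ± 4.75 CPM in control islets (SD, n = 3) and was not called (adjusted p = 0.456).

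Ppp1r15a encodes GADD34, which directs a phosphatase to eIF2 alpha and so closes the loop. Its level was 334, 543 and 578 CPM in particle islets and 621, 457 and 566 CPM in inflamed islets, against 130, 53.3 and 80.1 CPM in control islets (log2 fold change of inflamed against control 2.64, SE 0.35, adjusted p = 3.29e-04). Cebpg, a bZIP partner of ATF4, was at 195.5, 140 and 174 CPM in particle islets and 149, 119.5 and 130 CPM in inflamed islets, against 86.0, 59.4 and 76.5 CPM in control islets (0.84, SE 0.21, adjusted p = 0.00832). For both genes every cytokine-treated library exceeded every control.

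Atf4 itself rose by a smaller fold. It was at 773, 790 and 747 CPM in particle islets and 825, 644 and 822 CPM in inflamed islets, against 520, 461 and 518 CPM in control islets. Groups with and without cytokines did not overlap, and the log2 fold change of inflamed against control was 0.61 (SE 0.21, adjusted p = 0.0352). That call was lost without control replicate 1, 2 or 3 or inflamed replicate 1 or 3 (adjusted p from 0.0865 to 0.112) and without a count filter (0.124).

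The other regulators were not called. The control libraries were spread widely for Trib3 (7.62-fold) and Nupr1 (7.98-fold), and less for Atf5 (1.58-fold). Trib3, a pseudokinase that restrains ATF4, was at 402, 441.5 and 335 CPM in particle islets and 275, 232 and 264 CPM in inflamed islets, against 363, 47.6 and 185 CPM in control islets (inflamed against control, adjusted p = 0.593). Its log2 fold change was 0.37, and -0.11 without control replicate 2, so its direction hung on that library. Nupr1, a small nuclear stress protein, was at 541, 496 and 386 CPM in particle islets and 462, 204 and 747 CPM in inflamed islets, against 561, 70.3 and 273 CPM in control islets (adjusted p = 0.441). Atf5, an ATF4-related factor with a role in beta cell survival in mice, had 675 to 903 CPM in particle, 720 to 1181 CPM in inflamed and 552 to 870 CPM in control islets (adjusted p = 0.183; 0.0495 with unscaled totals). It overlaps Nup62 on the other strand, at 8.76% of its count.

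Ddit3, Trib3 and Nupr1 followed one order in the control libraries, highest in replicate 1 and lowest in replicate 2, with spreads of 7.66-fold, 7.62-fold and 7.98-fold. Gdf15 kept that order too, with a spread of 3.96-fold. The order was not particular to these genes, and others of the 33 kept it with smaller spreads. Among those were Ppp1r15a (2.44-fold), Slc6a9 (1.94-fold) and Slc3a2 (1.58-fold). Over all 33 genes control replicate 1 was the highest control for 18 and control replicate 2 the lowest for 20. Atf4 and Atf3 kept the same order but varied by only 1.13-fold and 1.15-fold among the same libraries. The insulin share of counts was alike in them (28.8%, 29.2% and 28.5% in replicates 1, 2 and 3). Control replicate 2 had the highest sums of stellate and pericyte markers (260 CPM against 83.1 and 127 CPM in replicates 1 and 3) and of acinar markers (646 CPM against 23.99 and 112 CPM), and the part of these differences was not tested.

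**Figure D2:**
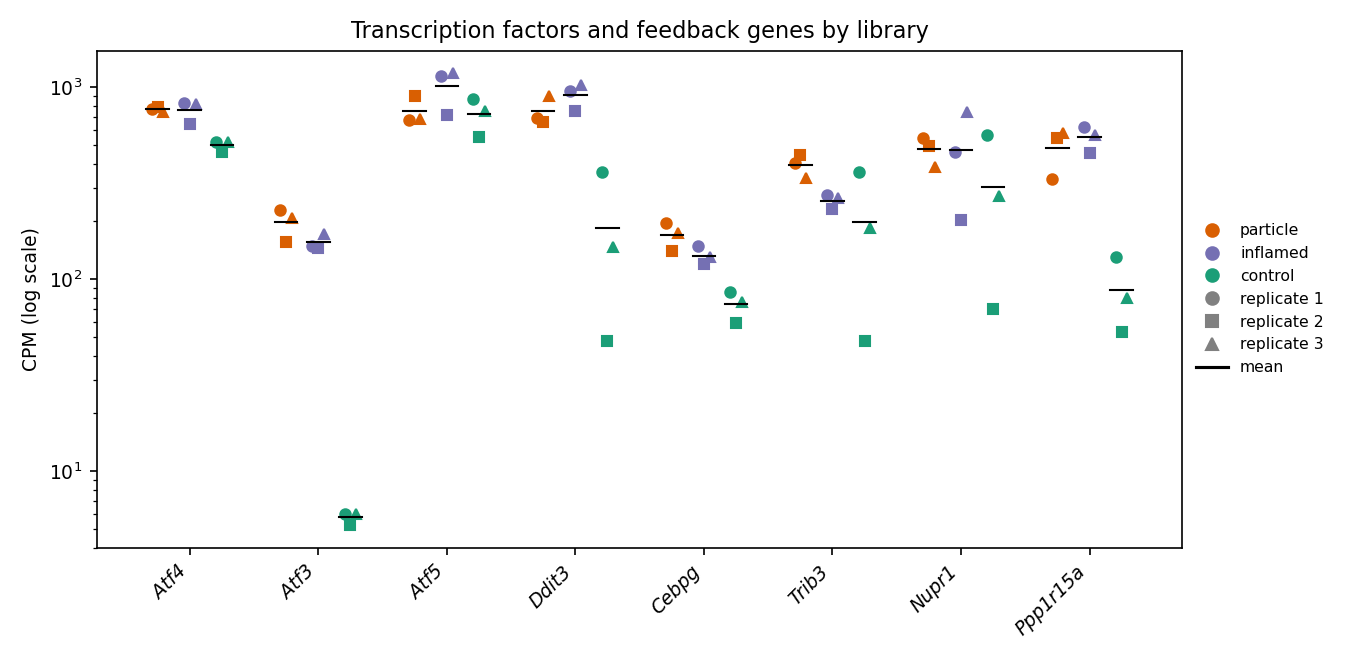
CPM on a log scale (y axis) of 8 transcription factors and feedback genes (x axis) in each library, with particle, inflamed and control groups from left to right, symbols for replicates 1 to 3 and a bar at the mean. Control replicate 2 (green square) sits at 47.4 CPM for Ddit3 and 47.6 CPM for Trib3, well below the other 2 controls, while the 3 controls of Atf3 lie together between 5.24 and 6.03 CPM.

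ATF4 with a C/EBP partner binds a composite element, for which the letters TGATGNAA were searched in the 250 bases before each gene start, on both strands (TTNCATCA on the other). RefSeq promoter sequences of build GRCm38.p6 matched 28 of the 33 genes, and 6 of the 28 held the letters (21.4%), against 3.91% of the 27025 genes in the table. The 6 were Atf3, Asns, Chac1, Nupr1, Pycr1 and Vldlr. The letters therefore stood before the regulator that rose most and before Pycr1, Chac1 and Vldlr, which fell. In Vldlr they stood before the later of its listed starts (27217020) and after the earlier one (27216484). The stretches around the matches of Asns, Nupr1 and Vldlr overlap annotated exons. A match describes the sequence and is neither a binding site nor a cause. Stretches that lie outside annotated exons are shown for 1 called gene that rose and 2 that fell, 5′ to 3′ on the strand of the gene, with the matched letters in capitals.
Atf3, chr1:191183412-191183467, minus strand, match starting 110 bases before the gene start: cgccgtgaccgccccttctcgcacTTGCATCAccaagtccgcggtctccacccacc
Chac1, chr2:119351025-119351080, plus strand, match starting 193 bases before the gene start: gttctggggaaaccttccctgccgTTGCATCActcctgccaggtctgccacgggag
Pycr1, chr11:120643820-120643875, minus strand, match starting 103 bases before the gene start: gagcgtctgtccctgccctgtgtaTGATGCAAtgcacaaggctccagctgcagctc
All 3 matches read TGATGCAA on 1 of the strands, on the gene's strand in Pycr1 and on the opposite strand in Atf3 and Chac1.

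Of the sensor kinase and the substrate among the 33 genes, the substrate rose. Eif2s1, the alpha subunit of eIF2 that the kinases phosphorylate, was at 72.2, 64.4 and 95.2 CPM in particle islets and 74.1, 75.6 and 88.5 CPM in inflamed islets, against 40.6, 32.8 and 34.3 CPM in control islets, without overlap (inflamed against control, log2 fold change 1.15, SE 0.20, adjusted p = 0.00142). Eif2ak4, which encodes the amino acid sensor GCN2, was low throughout, at 11.8 to 13.6 CPM in particle, 11.1 to 17.6 CPM in inflamed and 10.7 to 13.2 CPM in control islets (adjusted p = 0.451). In a wider list of 15 genes of eIF2 kinases and initiation, 8 rose in inflamed against control islets (53.3%) and 0 fell, against 20.7% and 19% of all genes. The list's median log2 fold change was 0.64, beside 0.05 for all genes. Eif2ak2, the interferon-inducible kinase PKR, was at 17.1 ± 0.696 CPM in inflamed and 3.91 ± 0.828 CPM in control islets (log2 fold change 2.13, adjusted p = 6.15e-04). Eif2s3x, the gamma subunit of eIF2, was at 49.4 ± 3.57 and 18.9 ± 3.06 CPM in inflamed and control islets (1.38, adjusted p = 0.00142). Eif2ak3, which encodes PERK, rose to 99.0 ± 27.5 CPM in inflamed islets, against 39.3 ± 11.4 CPM in control islets (1.33, adjusted p = 0.0208). Eif2ak1, which encodes HRI, was not called (0.007, adjusted p = 0.983). Both were named after their values were seen.

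None of the 3 brakes on growth signalling was called. Sesn2, a leucine sensor that holds mTORC1 in check, was at 261 to 291 CPM in particle, 209 to 269 CPM in inflamed and 179 to 258 CPM in control islets (inflamed against control, adjusted p = 0.628). Ddit4, which encodes the mTORC1 inhibitor REDD1, was at 41.2 to 72.3, 30.5 to 65.8 and 62.4 to 81.3 CPM in particle, inflamed and control islets (adjusted p = 0.288). Eif4ebp1, a repressor of cap-dependent translation, was at 76.0 to 145, 70.6 to 143 and 45.9 to 89.5 CPM in the same groups (adjusted p = 0.0695), and it passed with unscaled totals (0.0194), with DESeq2 (0.0482) and without control replicate 1 (0.0443) or inflamed replicate 2 (0.0239). In a list of 25 further genes of amino acid sensing, 4 rose (16%) and 6 fell (24%) in inflamed against control islets, and the 40% called were near the 39.6% of all genes. The sestrins Sesn1 and Sesn3, relatives of Sesn2, had the smallest adjusted p. Sesn1 fell to 8.69 ± 0.924 CPM in inflamed islets, against 24.03 ± 3.01 CPM in control islets (adjusted p = 6.66e-04), and Sesn3 to 29.0 ± 5.93 CPM, against 88.8 ± 13.6 CPM (9.85e-04).

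Of 7 enzymes of serine, one-carbon and proline synthesis, 0 rose, 3 fell (42.9%, against 19% of all genes) and 4 were not called in inflamed islets. Of the 3, Pycr1 passed under all 19 alternatives, while Psph and Aldh18a1 did not. The median log2 fold change of the 7 was -0.59. Pycr1, which makes proline in mitochondria (ENSMUSG00000025140, chromosome 11 from 120526538 to 120534595, minus strand), fell most. It stood at 24.7, 67.3 and 29.2 CPM in particle islets and 14.1, 15.3 and 22.7 CPM in inflamed islets, against 74.3, 95.8 and 98.2 CPM in control islets, and for inflamed against control the log2 fold change was -2.36 with an SE of 0.365 (edgeR adjusted p = 7.85e-04). Neither treated group reached the controls, and particle replicate 2 lay nearest to them.

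Aldh18a1, the enzyme that opens proline synthesis from glutamate, was at 165, 170 and 137 CPM in particle islets and 107, 144 and 97.7 CPM in inflamed islets, against 151, 190 and 180 CPM in control islets (inflamed against control, log2 fold change -0.58, SE 0.20, adjusted p = 0.0411). Its call was lost when control 2 or 3, inflamed 1 or 3 or particle 1 was omitted (adjusted p from 0.0549 to 0.118) and with unscaled library totals (0.206). Psph, the last step of serine synthesis, was at 35.3, 45.6 and 25.0 CPM in particle islets and 21.2, 14.0 and 21.3 CPM in inflamed islets, against 31.3, 29.8 and 36.7 CPM in control islets (-0.79, SE 0.25, adjusted p = 0.0297). All inflamed libraries were below all controls, whereas particle and control libraries overlapped. The Psph call was lost without control replicate 3 (0.0924) or inflamed replicate 2 (0.0916) and with a replicate block (0.0553), and it stood at 0.05 without control replicate 1. Psph also overlaps Cct6a on the other strand, whose mean count was 501% of its own, so its level is uncertain.

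The earlier enzymes of the serine pathway were not called. Phgdh, its entry step, was at 61.7 to 115, 48.4 to 76.2 and 90.7 to 110 CPM in particle, inflamed and control islets (inflamed against control, adjusted p = 0.104), and Psat1, the middle step, at 34.9 to 49.8, 33.9 to 40.1 and 31.8 to 51.9 CPM (0.528). Shmt2, which splits serine in mitochondria for one-carbon units, was at 58.5 to 103, 55.3 to 82.8 and 101 to 109 CPM (0.0787). Shmt2 passed with DESeq2 (0.0382), in a fit of the 6 compared libraries (0.0189) and without particle replicate 2 (0.0193). Phgdh passed in the same fit of 6 libraries (0.031) and without particle replicate 2 (0.0299). Mthfd2, which oxidises the mitochondrial folate made from them, was at 146 to 153, 142 to 165 and 126.5 to 145.5 CPM (0.354).

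In a list of 21 further genes of serine, folate and proline metabolism, 2 rose (9.52%) and 6 fell (28.6%) in inflamed against control islets, with a median log2 fold change of -0.46. The 38.1% called were near the 39.6% of all genes. Mthfd1, the cytosolic folate enzyme, fell to 52.5 ± 6.12 CPM in inflamed islets, against 126 ± 9.06 CPM in control islets (adjusted p = 0.00121). Shmt1, the cytosolic counterpart of Shmt2, rose to 7.87 ± 0.41 CPM in inflamed islets, against 2.08 ± 0.274 CPM in control islets (0.00125).

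**Figure D3:**
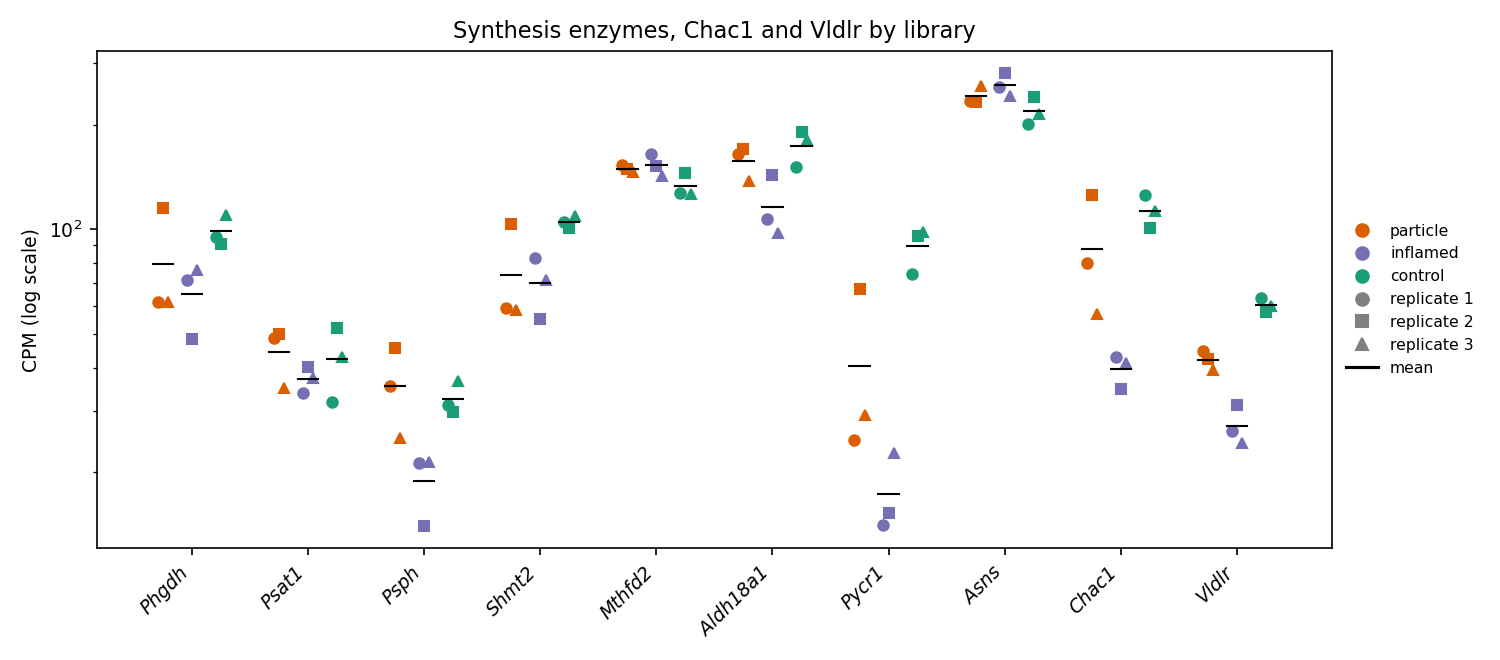
CPM on a log scale (y axis) of 8 enzymes of amino acid synthesis, Chac1 and Vldlr (x axis) in each library, with particle, inflamed and control groups from left to right and a bar at the mean. For Pycr1, Chac1, Psph and Vldlr the 3 inflamed libraries lie below all other libraries, and for Pycr1 particle replicate 2 (orange square, 67.3 CPM) lies far above the other particle libraries at 24.7 and 29.2 CPM.

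Of Asns, Cth and Chac1, Chac1 fell and the others were not called. Asns, asparagine synthetase and a much used reporter of ATF4 activity, was at 234, 233 and 258 CPM in particle islets and 256, 281 and 241 CPM in inflamed islets, against 201, 239 and 214 CPM in control islets. All inflamed libraries lay above all controls by a small margin, and the gene was not called (adjusted p = 0.288). Chac1, which degrades glutathione and is a target of ATF4 and CHOP (ENSMUSG00000027313, chromosome 2 from 119181710 to 119184862, plus strand), was at 80.1, 125.5 and 57.1 CPM in particle islets and 42.9, 34.7 and 41.1 CPM in inflamed islets, against 125, 101 and 113 CPM in control islets. It fell in inflamed islets by 1.51 on the log2 scale (SE 0.27, adjusted p = 0.00152), in the libraries in which Ddit3 rose.

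Cth, which makes cysteine by transsulfuration, was near the limit of detection, with 11, 20 and 10 counts in particle, 12, 4 and 0 in inflamed and 17, 19 and 30 in control libraries (adjusted p = 0.198). In a list of 12 tested genes of transsulfuration and glutathione, 4 rose (33.3%) and 3 fell (25%) in inflamed against control islets, against 20.7% and 19% of all genes. Gclm, a subunit of the enzyme that limits glutathione synthesis, rose to 394 ± 38.3 CPM in inflamed islets, against 100.4 ± 16.2 CPM in control islets (adjusted p = 1.71e-04), and Csad, of taurine synthesis, fell to 12.4 ± 4.39 CPM, against 44.5 ± 4.05 CPM (0.0018).

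Among 7 amino acid transporters 1 rose (14.3%) and 0 fell in inflamed islets, against 20.7% and 19% of all genes. Slc3a2 encodes the heavy chain CD98 that carries several light-chain transporters to the cell surface (ENSMUSG00000010095, chromosome 19 from 8684246 to 8700733, minus strand). It was at 994, 987 and 1096 CPM in particle islets and 1286, 1009 and 1175 CPM in inflamed islets, against 537, 340 and 491 CPM in control islets, without overlap (inflamed against control, log2 fold change 1.34, SE 0.24, adjusted p = 0.00171). Slc7a5, which encodes its partner LAT1 for leucine and other large neutral amino acids, was at 314, 339 and 267.5 CPM in particle islets and 287, 324 and 208 CPM in inflamed islets, against 444, 343 and 441 CPM in control islets. All inflamed libraries were below all controls, at a log2 fold change of -0.58 (SE 0.23) that was not called (adjusted p = 0.0608). It passed with 5 of the alternative settings in which all libraries of both groups were kept, and when control 2 (0.0429), inflamed 2 (0.0469) or particle 2 (0.0479) was omitted.

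Per length, in fragments per kilobase (FPKM), the Slc3a2 level was 3.33, 3.06 and 4.31 times that of Slc7a5 in particle islets and 4.70, 3.27 and 5.94 times in inflamed islets, against 1.27, 1.04 and 1.17 times in control islets. The transcripts of the pair were thus near parity in every control, and Slc3a2 was at 3.06 times Slc7a5 or more in every cytokine-treated library. Slc3a2 serves other light chains too, so this RNA ratio does not give the proportion of the proteins. This ratio was chosen after the values of both genes had been seen.

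The other transporters of the group were lower in level and not called. By mean FPKM in control islets, the order was Slc1a4 (14.3), Slc38a2 (8.77), Slc6a9 (4.25), Slc1a5 (1.55) and Slc7a3 (0.73). Slc1a4 and Slc1a5 exchange small neutral amino acids, Slc38a2 imports glutamine and other neutral amino acids, Slc6a9 imports glycine and Slc7a3 imports arginine and lysine. Their adjusted p for inflamed against control ran from 0.188 for Slc6a9 to 0.762 for Slc38a2. Slc6a9 overlaps B4galt2 on the other strand, at 29.5% of its count.

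Other amino acid carriers moved in both directions. Of 21 further transporters tested among 25 listed, 7 rose (33.3%) and 9 fell (42.9%) in inflamed against control islets, against 20.7% and 19% of all genes. Their median log2 fold change was -0.37. Slc7a11, the light chain that trades glutamate for cystine and pairs with Slc3a2, rose to 55.3 ± 30.7 CPM in inflamed islets, against 2.45 ± 1.15 CPM in control islets (log2 fold change 4.502, adjusted p = 1.52e-04). Slc7a2, an arginine and lysine carrier that is also abundant in alpha cells, fell to 48.7 ± 9.43 CPM in inflamed islets, against 226 ± 31.9 CPM in control islets (-2.21, adjusted p = 3.89e-04). In the same libraries the summed alpha cell markers were 178 to 573 CPM in inflamed and 7685 to 27790 CPM in control islets, and Slc7a2 is in that marker list.

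**Figure D4:**
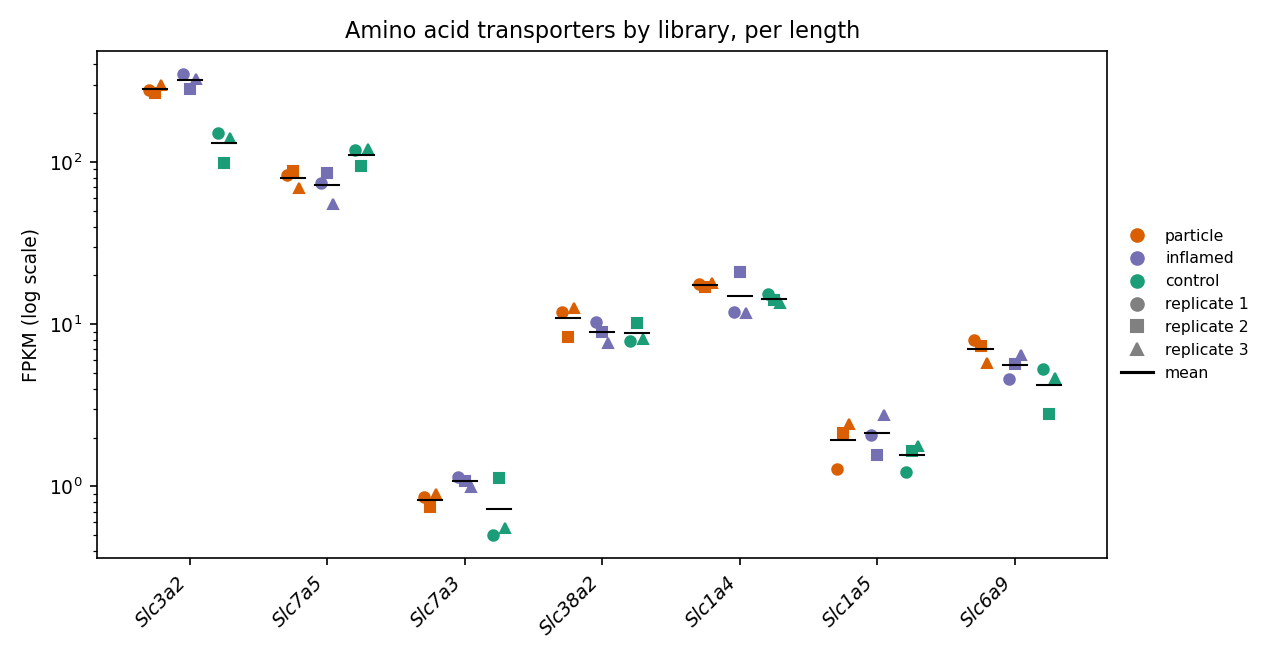
FPKM on a log scale (y axis) of 7 amino acid transporters (x axis) in each library, with particle, inflamed and control groups from left to right and a bar at the mean. Slc3a2 lies at 268 to 350 FPKM in all 6 cytokine-treated libraries and at 98.8 to 151 FPKM in controls, while Slc7a5 lies at or below 87.6 FPKM in the treated libraries and at or above 94.8 FPKM in controls.

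Aminoacyl-tRNA synthetases load amino acids onto tRNA, and many are known ATF4 targets. Of 20 cytosolic ones, 11 rose (55%) and 0 fell in inflamed against control islets, against 20.7% and 19% of all genes, with a median log2 fold change of 0.59 beside 0.05 for all genes. Kars, for lysine, reached 511 ± 7.56 CPM in inflamed islets, against 111 ± 11.4 CPM in control islets (log2 fold change 2.21, adjusted p = 7.1e-05), and Rars, for arginine, 122 ± 12.5 CPM against 38.3 ± 1.58 CPM (1.67, adjusted p = 2.95e-04). The other 9 were not called. Of these, Lars, for leucine (log2 fold change -0.43, adjusted p = 0.0818), and Gars, for glycine (-0.36, 0.199), had all inflamed libraries below all controls. Sars, for serine (0.56, 0.0618), Tars, for threonine (0.34, 0.142), and Iars, for isoleucine (0.35, 0.162), had all inflamed libraries above all controls. All of these were named after their values were seen. In particle islets 9 of the 20 were higher than in controls (45%) and 0 lower, against 11.4% and 5.92% of all genes. Wars, for tryptophan and known as an interferon target, was among those 9 and spread widely, at 962 ± 610 CPM in particle islets, 559 ± 72.2 CPM in inflamed islets and 173 ± 12.6 CPM in control islets. It was named after its values were seen.

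The 2 secreted factors were not called in inflamed against control islets and the receptor fell. Gdf15, a stress hormone sensed by the hindbrain, was at 59.0, 75.6 and 43.6 CPM in particle islets and 62.4, 35.03 and 55.4 CPM in inflamed islets, against 34.3, 8.65 and 28.1 CPM in control islets. Every treated library was above every control, at a log2 fold change of 1.10 for inflamed against control (SE 0.43, adjusted p = 0.0607) that passed with unscaled totals (0.0215), with DESeq2 (0.0299) and without control replicate 1 (0.0404) or inflamed replicate 2 (0.0497). Stc2, a secreted glycoprotein, stayed at or under 6.07 CPM in all 9 libraries. Vldlr, the very low density lipoprotein receptor, was at 44.7, 42.4 and 39.3 CPM in particle islets and 26.2, 31.1 and 24.2 CPM in inflamed islets, against 63.5, 57.8 and 60.1 CPM in control islets. The 3 groups did not overlap, and the fall in inflamed islets was 1.15 on the log2 scale (SE 0.17, adjusted p = 6.36e-04), called under all 19 alternatives.

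In particle islets, set against controls, Atf3, Ppp1r15a, Ddit3, Cebpg, Slc3a2 and Eif2s1 rose and Pycr1 fell. These were 6 of 33 genes higher (18.2%) and 1 lower (3.03%), against 11.4% and 5.92% of all genes, or 7 (21.2%) against 17.3% in either direction. With unscaled library totals 10 were higher and 0 lower, beside 3193 and 597 of all genes, where TMM scaling gave 1961 and 1022. All particle libraries were above all controls for 13 of 33 (39.4%) and below for 3 (9.09%), against 22.9% and 20.6% of all genes. At an unadjusted p under 0.05 there were 12 of 33, 10 of them higher, against 33.5% of all genes in either direction and 19.7% higher. The number called lower ran from 0 in 7 of the omissions of 1 library to 4 without particle replicate 2. Over all genes the number called lower also moved widely with these omissions, as given at the end. Both comparisons use the same control libraries, so their values are given side by side and not as separate evidence. For particle against control the log2 fold change was 5.10 for Atf3 (SE 0.23, adjusted p = 5.65e-07), 2.46 for Ppp1r15a (SE 0.35, adjusted p = 8.19e-04) and 2.01 for Ddit3 (SE 0.55, adjusted p = 0.0319). Cebpg (1.20), Slc3a2 (1.17) and Eif2s1 (1.10) also rose, each at an adjusted p of 0.00915 or less. The Ddit3 value was 2.90 without control replicate 1, and its call was lost when control 3, inflamed 1, particle 1 or particle 3 was omitted (adjusted p from 0.0518 to 0.116), without a count filter (0.148) and in a fit of the 6 compared libraries (0.0621). Atf4 was not called at 0.62 (SE 0.21, adjusted p = 0.058), and it passed with unscaled totals (0.00933) and DESeq2 (0.00567).

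Pycr1 was the gene called lower in particle against control islets, by 1.15 on the log2 scale (SE 0.35, adjusted p = 0.0459). The call was lost in 7 of the 9 omissions of 1 library, those of control replicates 1, 2 and 3, inflamed replicates 1 and 2 and particle replicates 1 and 3 (adjusted p from 0.0569 to 0.17), with unscaled totals (0.0524) and in a fit of the 6 compared libraries (0.0623). Without particle replicate 2 the difference was -1.76 (adjusted p = 9.99e-04). Vldlr (-0.52, adjusted p = 0.0563), Gdf15 (1.33, 0.0558) and Slc6a9 (0.78, 0.0569) stood just outside the threshold with groups that did not overlap. Each passed under some of the 19 alternatives, Vldlr under 6 (smallest adjusted p 0.0096, with DESeq2; 0.0442 without inflamed replicate 3), Gdf15 under 4 (0.0142, with unscaled totals) and Slc6a9 under 2 (0.0141, with unscaled totals). Trib3 (0.98, 0.211) passed without control replicate 1 (0.0436). The wider lists are read against 11.4% of all genes higher and 5.92% lower. Of 15 genes of eIF2 kinases and initiation 6 rose (40%) and 0 fell, and of 21 further transporters 3 rose (14.3%) and 5 fell (23.8%). Of 21 further serine, folate and proline genes 2 rose and 2 fell (9.52% each), so the 19% called were near the 17.3% of all genes. The transsulfuration and glutathione list had 5 of 12 higher (41.7%) and 1 lower (8.33%), and the amino acid sensing list 5 of 25 higher (20%) and 3 lower (12%).

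Named by the smallest adjusted p for particle against control, Eif2ak2 was at 14.5 ± 5.36 CPM in particle and 3.91 ± 0.828 CPM in control islets (adjusted p = 0.00257), and Eif2s2, the beta subunit of eIF2, at 157.5 ± 29.8 and 88.7 ± 10.9 CPM (0.0186). Kars (0.000475) and Rars (0.00191) led the synthetases again, at 368.5 ± 87.4 and 98.1 ± 27.2 CPM in particle islets. Slc7a11 was at 27.0 ± 12.1 CPM in particle islets (adjusted p = 0.00104) and Slc7a2 at 59.9 ± 25.9 CPM (0.00164), and the alpha cell markers summed to 172.5 to 8068 CPM in the same libraries. Shmt1 (6.97 ± 2.19 CPM in particle islets, 0.00528), Gclm (321 ± 72.2 CPM, 7.47e-04) and Gsr, glutathione reductase (105 ± 27.1 CPM in particle and 59.2 ± 1.28 CPM in control islets, 0.0205), were higher than in control islets. Mthfd1 (73.3 ± 17.97 CPM, 0.0291) and Sesn1 (11.1 ± 1.93 CPM, 0.0072) were lower. Ddit4l, a relative of Ddit4, was at 7.16 ± 0.498 CPM in particle and 2.08 ± 0.291 CPM in control islets (0.00393).

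Between particle and inflamed islets no gene passed, among the 33 or among all 17276 genes (0% called), in edgeR's quasi-likelihood test. At an unadjusted p under 0.05 there were 4 of 33 (12.1%), Chac1, Vldlr, Psph and Pycr1, all with every particle library above every inflamed one, against 15.1% of all genes in either direction and 9.58% higher. DESeq2 called these 4, against 4.53% of all genes in either direction and 2.82% higher. Without a count filter Chac1 passed (0.0142), against 0.735% and 0.399%. Their values are those given above: Chac1 at 87.6 ± 34.8 CPM in particle and 39.6 ± 4.31 CPM in inflamed islets (log2 fold change 1.15, SE 0.26, adjusted p = 0.121), Vldlr at 42.1 ± 2.72 and 27.2 ± 3.55 CPM (0.63, SE 0.17, adjusted p = 0.155), Psph at 35.3 ± 10.3 and 18.9 ± 4.20 CPM (0.90, SE 0.25, adjusted p = 0.165) and Pycr1 at 40.4 ± 23.4 and 17.4 ± 4.67 CPM (1.22, SE 0.35, adjusted p = 0.172). This comparison and that of inflamed with control share the inflamed libraries.

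These 4 results leaned on single libraries to different degrees. The Pycr1 difference was 0.62 without particle replicate 2, the library with the highest alpha cell and acinar sums and the highest beta cell sum of its group. Without particle replicate 3, Chac1 (adjusted p = 0.0168) and Psph (0.0318) passed, against 5.5% of all genes in either direction and 3.69% higher. Particle replicate 2 was the highest particle library for Chac1 (125.5 CPM) and Psph (45.65 CPM) too. Over the 19 alternatives the log2 fold change ran from 0.79 to 1.38 for Chac1 and from 0.67 to 1.10 for Psph. Vldlr had the narrowest range of the 4 in particle libraries, at 39.3 to 44.7 CPM. In the same libraries the macrophage marker sum was 365 to 549 CPM in particle and 1083 to 1218 CPM in inflamed islets, and its part was not tested. That 0 of its 13 markers were called says nothing about them, since 0 of all 17276 genes were called in this comparison.

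The remaining 29 genes had adjusted p values from 0.342 to 0.998 between particle and inflamed islets. Levels of the main regulators were close: Atf4 averaged 770 ± 21.5 CPM in particle and 763.5 ± 104 CPM in inflamed islets, Ppp1r15a 485 ± 132 and 548 ± 83.7 CPM, and Ddit3 748 ± 130 and 913 ± 141.5 CPM. Trib3 was at 393 ± 54.0 CPM in particle and 257 ± 22.0 CPM in inflamed islets, with all particle libraries above all inflamed ones (adjusted p = 0.623). Slc7a3 was the 1 gene with all particle libraries below all inflamed ones, at 2.93 to 3.53 against 3.83 to 4.51 CPM. Groups separated upward for 5 of 33 genes (15.2%) and downward for 1 (3.03%), against 8.87% and 6.82% of all genes. Of the wider lists, 0 of 114 genes passed between these groups, as for all genes tested (0%). The smallest adjusted p in the lists was 0.153, for Slc7a4, an SLC7 family member, at 31.7 ± 13.5 CPM in particle and 14.9 ± 0.25 CPM in inflamed islets.

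**Figure D5:**
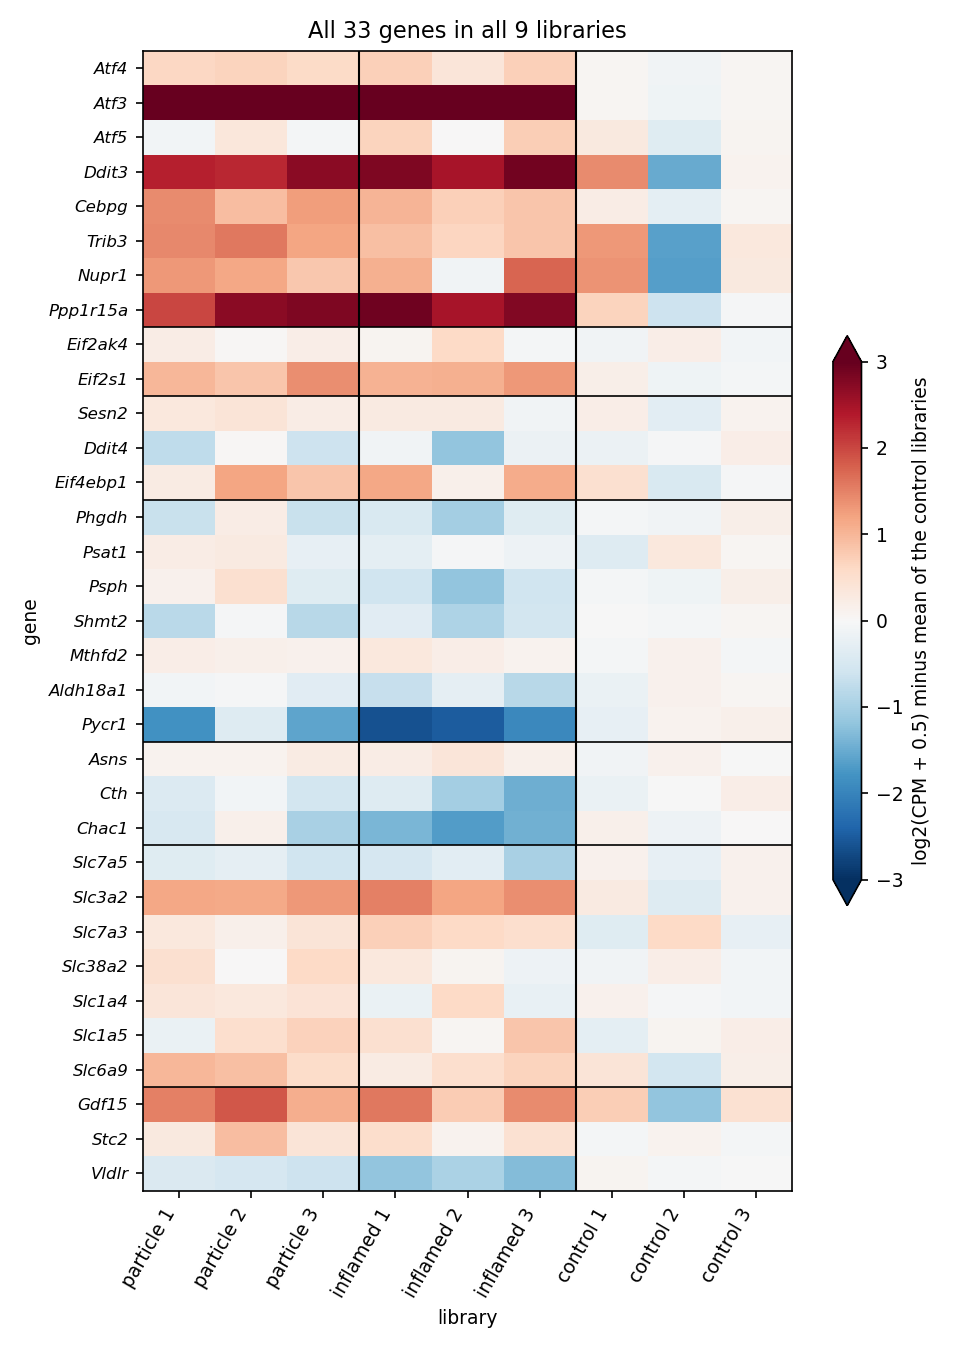
Log2(CPM + 0.5) of the 33 genes (y axis, ordered by role with lines between roles) in the 9 libraries (x axis, particle, inflamed and control from left to right), each minus the mean of the 3 control libraries. Atf3, Ddit3 and Ppp1r15a are red in all 6 cytokine-treated libraries, Pycr1 and Chac1 are darkest blue in the inflamed libraries, and control replicate 2 is blue for Ddit3, Trib3, Nupr1 and Gdf15.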

How the data were processed

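RNA of 9 islet libraries was sequenced, 3 in each group, and groups and replicate numbers come from the titles, per the labels. The control columns carry no treatment word and were matched as the 3 left once the others had been matched by name. The authors deposited whole-number counts per gene and FPKM values. The deposited FPKM values are the same counts scaled to gene length and to a factor of each library. HTSeq, DESeq2 and build GRCm39 are named in the submitters' processing notes. The aligner, strand setting, versions and the source of the replicates (animals or cultures) are not given in the sources used here, so p-values reflect only how far these libraries spread, and part of that may be technical.

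Counts were tested with edgeR 4.0.16 (R 4.3.3): filterByExpr (smallest count 10), TMM factors, and robust quasi-likelihood fits of group over all 9 libraries, with Benjamini-Hochberg adjustment over 17276 genes in each of 3 comparisons. CPM uses the TMM-scaled totals, and the SE is the log2 fold change divided by the root of its F statistic. FPKM was used to compare levels between genes. Replicates of a group differed by 42.5 to 197 chi-square units per degree of freedom, so none is a copy. The procedure was tested on simulated data. Alternatives were other scalings and filters, DESeq2 1.42.0, limma 3.58.1 on FPKM, fits of the compared groups alone, a replicate block, and omission of each library.

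The 33 genes and the 6 wider lists were chosen with earlier results of these data known. Genes given by library were those called in any comparison and, beyond that rule, those whose values bear on the text. The 2 genes with the smallest adjusted p were named from lists with a call, and others are said to be chosen later.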

Additional observations from a re-analysis of the deposited data

How the results depend on the processing

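Of the 12 genes called in inflamed against control islets, Atf3, Cebpg, Ppp1r15a, Eif2s1, Pycr1, Chac1, Slc3a2 and Vldlr passed under all 19 alternatives, and Atf4, Ddit3, Psph and Aldh18a1 did not, as given above. Trib3 ran from -0.111 without control replicate 2 to 1.111 without control replicate 1. The lower calls among the 33 were 8 in a fit of the compared libraries and 3 to 8 when 1 library was omitted, and genes called higher were 2345 to 3793. The number of all genes called lower in these settings is not given here, so the lower calls are not read as particular to the 33. With unscaled totals 4240 genes were higher and 2605 lower (10 and 4 of the 33), against 3568 and 3274 (7 and 5) with TMM scaling. Between particle and inflamed islets, calls higher and lower were 1 and 0 genes with unscaled totals, 120 and 101 without a count filter (1 of the 33 higher), 487 and 296 with DESeq2 (4 of the 33 higher), 1 and 15 with limma on log2(FPKM + 1) and 5 and 9 on log2(FPKM + 0.1). Omitting 1 library gave 0 to 638 genes higher, 0 to 312 lower and 0 to 2 of the 33 higher. Against control, particle islets had 3193 genes higher and 597 lower with unscaled totals (10 of the 33 higher, 0 lower), and 1940, 2017 and 1635 lower with DESeq2 and limma at the larger and smaller pseudocount. Of the 33, 2 were lower with RLE factors, the stricter filter, DESeq2 and both limma fits, and 0 in a fit of the compared libraries. For RLE factors, the stricter filter and the fit of the compared libraries the number of all genes lower is not given here. These counts are therefore not read as particular to the 33. Omitting 1 library gave 913 to 2496 genes higher, 233 to 2121 lower and 0 to 4 of the 33 lower. Unscaled totals moved the median log2 fold change of all genes to 0.22 in inflamed against control, to 0.13 in particle against inflamed and to 0.32 in particle against control. The cause of these changes was not tested.

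Deviations of same-numbered libraries correlated at -0.184 to 0.206, and those of differently numbered ones at -0.249 to 0.245. With 3 libraries a group these values cannot decide whether same-numbered libraries share a source, which the labels do not give. With a replicate block 7 of the 33 were higher and 4 lower in inflamed against control islets, 0 and 0 in particle against inflamed, and 7 and 1 in particle against control, where Gdf15 passed (0.0478). The share of all genes called with this block is not given here, so these counts are not read as particular to the 33. With 3 libraries a group, small differences may be missed, and Cth, Slc7a3 and Stc2 rest on few counts.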
